A study of Bos taurus with 13 samples.

Results

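The genes described here encode antiviral effectors that interferon induces, and they were chosen by name: *OAS1X*, *OAS1Y*, *OAS2*, *RSAD2*, *IFI6*, *IFI44*, *IFI44L*, *CMPK2*, *XAF1* and *SIGLEC1*. Of these 10 names, 9 matched an entry among the 16095 named genes of the count tables, and *OAS1Y* was not analysed here. The names were chosen with earlier results of these data known. Counts of members set beside shares over all genes are therefore a description. RNA-Seq of whole blood from 13 Italian Red Pied cows was used, 7 of a high cortisol group (cows 1 to 7) and 6 of a low cortisol group (cows 8 to 13). The cows were lactating animals from the 2 ends of a ranking by cortisol concentration in milk, no cow received a treatment, and no age is given in the labels. The labels place 10 cows at each end, and cows beyond the 13 were not analysed here. Each library is from 1 cow, and blood was taken once into a tube that preserves RNA, without removal of globin RNA. The design asks whether cows that differ in milk cortisol also differ in blood expression, and the ranking is by cortisol alone, with no infection or vaccination recorded in the labels.

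Type I interferon binds a receptor on almost all cells, and the kinases JAK1 and TYK2 then activate transcription factors such as STAT2, which enters the nucleus with IRF9 and switches on a large set of genes. Many of these genes encode proteins that block viruses at single steps of their growth. Their level in the blood of healthy animals is lower than in infection or after vaccination, when they rise together. In whole blood, a change in the number of cells of a type and a change in RNA per cell cannot be told apart.

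Reads counted on named genes were between 12198355 and 23709740 per cow in the high group and between 11045599 and 28124575 in the low group. Counts were expressed relative to TMM-scaled library size (CPM), and 11033 named genes, all 9 members included, passed the filter on low counts. The lowest count of any member in any cow was 32, for *SIGLEC1*. No 2 libraries were identical. Marker genes of neutrophils, monocytes, T cells, B cells and erythroid cells were detected, as in whole blood, and no marker found in the tables was at 0 in all cows.

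All 9 members had a log2 fold change below 0 in the high group against the low group, between -0.36 for *IFI44L* and -1.11 for *OAS1X* (edgeR's quasi-likelihood test), while 46.7% of all genes tested were below 0. None of the 9 passed an adjusted p of 0.05 (adjusted p 0.998 for each), as was so for 0% of all genes tested. DESeq2 and limma-voom called none of the 9 either, and DESeq2 called 0.00696% of all genes. An unadjusted p below 0.05 was reached by 2 of the 9, *OAS1X* and *IFI44*, against 2.09% of all genes tested and 1.16% counted in the lower direction only. For each of the 9 members, 6 of 7 high cows were under the low group's median, and for each the remaining high cow was cow 5. At least 6 of 7 high cows were under that median for 9.12% of all genes tested. The members vary together over the same cows (median r 0.841), so the 9 genes are not separate observations. The plot of CPM by cow shows cow 5 apart from the other high cows.

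**Figure D1:**
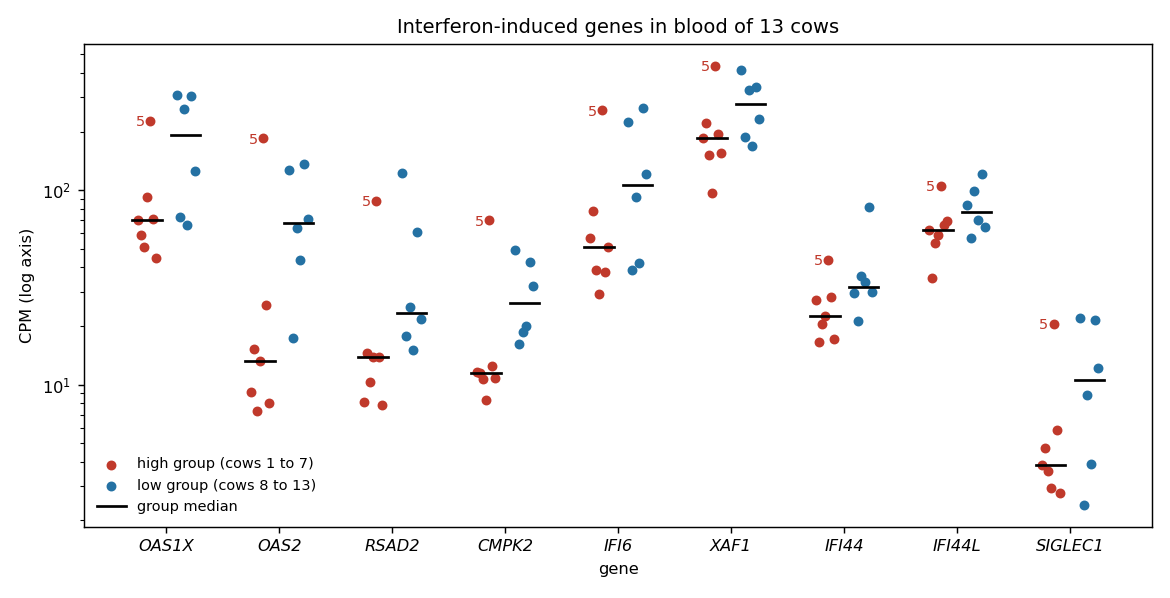
CPM (log axis) of the 9 interferon-induced genes in each of 13 cows, in red for the high group and blue for the low group, with black lines at the group medians. Cow 5, marked by its number, is the highest of the 7 high cows for every gene, and the other high cows are under the low group's median.

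The OAS enzymes sense double-stranded RNA and make short oligoadenylates, which act as a signal of infection inside the cell. *OAS1X* and *OAS2* lie on the same strand of chromosome 17 (UMD3.1), *OAS2* at chr17:63611774-63640159 with 13 exons and *OAS1X* at chr17:63654698-63678163 with 9 exons. The exons of *OAS1X* form 2 stretches, 4 exons at chr17:63654698-63660157 and 5 exons at chr17:63670249-63678163, and 3 exon lengths (289, 233 and 185 bases) occur in both, so the counts under this name may come from more than 1 similar gene copy. Between them, 6 exons without a gene name lie on the same strand within chr17:63638182-63646117, with an overlap with 1 exon of *OAS2*. Their reads are part of the unnamed entry. Whether these exons belong to 1 gene, and whether any are of *OAS1Y*, was not established. RefSeq (ARS-UCD2.0) lists the order *OAS2*, *OAS1Y*, *OAS1X*.

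*OAS1X* was between 44.6 and 227 CPM in high cows (median 70.0) and between 66.2 and 310 CPM in low cows (median 193). The means were 87.7 ± 63.2 (SD, n = 7) and 190 ± 115 CPM (SD, n = 6). Cows 8, 10 and 12 of the low group and cow 5 of the high group had more than the other 9 cows, cows 9 and 11 lay among the high cows, and the groups overlapped. Its log2 fold change was -1.11 ± 0.44 (SE, 95% interval -2.06 to -0.16), with an unadjusted p of 0.0246 and an adjusted p of 0.998 by edgeR's quasi-likelihood test. The exact permutation test of mean log2 CPM over all 1716 splits of the cows gave a two-sided p of 0.0600. Without cow 8 the log2 fold change was -0.91 (unadjusted p = 0.0536), and without cow 12 it was -0.93 (unadjusted p = 0.0606, edgeR's quasi-likelihood test).

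*OAS2* had the widest range of the 9 genes on the log scale, from 7.32 CPM in cow 3 to 185 CPM in cow 5, a ratio of 25.3. The high group had a median of 13.2 CPM and a second highest value of 25.8 CPM (mean 37.7 ± 65.3, SD, n = 7). The low group ran from 17.3 to 136 CPM with a median of 67.5 (mean 76.4 ± 46.6, SD, n = 6). Thus 5 of 7 high cows lay below every low cow, while cow 5 lay above every low cow. Its log2 fold change was -1.01 ± 0.75 (SE, 95% interval -2.62 to 0.60, unadjusted p = 0.200, edgeR's quasi-likelihood test). By limma-voom it was -1.76 (unadjusted p = 0.0143). The difference of mean log2 CPM, which gives cow 5 less weight than a difference on the count scale, was -1.82, and *OAS2* was the only member with an exact permutation p below 0.05 (0.0449, not adjusted for the 9 genes), against 2.05% of all genes. With cow 1, 2, 3, 4, 6, 7, 8, 10, 12 or 13 left out, no member had such a p. Without cow 11 the exact permutation p was 0.0593 for *OAS2* and 0.0290 for *OAS1X*. Only 0.172% of all genes tested, 19 genes, had an SD of log2 CPM across the 13 cows at least as large as *OAS2* (1.64).

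*RSAD2* encodes viperin, an enzyme that turns CTP into a chain terminator of viral RNA synthesis, and *CMPK2* encodes a mitochondrial kinase that phosphorylates CMP and UMP. The genes are neighbours in opposite directions on chromosome 11, *RSAD2* at chr11:90012630-90029927 (minus strand, 6 exons) and *CMPK2* at chr11:90042357-90057598 (plus strand, 5 exons), 12429 bases apart. *RSAD2* was between 7.88 and 87.9 CPM in high cows (median 13.8) and between 15.0 and 123 CPM in low cows (median 23.4). *CMPK2* was between 8.37 and 70.0 CPM in high cows (median 11.4) and between 16.2 and 49.5 CPM in low cows (median 26.1). In both genes cow 5 alone set the overlap: the second highest high cow was at 14.5 CPM for *RSAD2* and at 12.4 CPM for *CMPK2*, below the lowest low cow. The high group means were 22.4 ± 29.0 and 19.3 ± 22.4 CPM (SD, n = 7), and those of the low group were 43.9 ± 42.2 and 29.8 ± 13.8 CPM (SD, n = 6). The log2 fold change was -0.97 ± 0.65 (SE) for *RSAD2* (unadjusted p = 0.155) and -0.62 ± 0.49 for *CMPK2* (unadjusted p = 0.221) by edgeR's quasi-likelihood test. The exact permutation p was 0.131 for *RSAD2* and 0.0798 for *CMPK2*. The *RSAD2* value of the low group rested on cow 8 in particular, since without that cow the log2 fold change was -0.32 (unadjusted p = 0.590).

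*IFI6* encodes a small membrane protein that limits flavivirus replication and cell death, and *XAF1* encodes a protein that counters the apoptosis inhibitor XIAP. *IFI6* lies at chr2:126246561-126250182 (plus strand, 5 exons) and *XAF1* at chr19:25759759-25772925 (minus strand, 9 exons, 1012 bases from *FBXO39*). *IFI6* was between 29.2 and 257 CPM in high cows (median 51.2) and between 38.8 and 266 CPM in low cows (median 107). Cows 5, 8 and 12 had 257, 225 and 266 CPM, and the next cow, cow 13, had 122 CPM. *XAF1* was between 96.6 and 435 CPM in high cows (median 185) and between 169 and 415 CPM in low cows (median 279). Cow 5 was the highest cow of all for *XAF1*, and cow 4 was the lowest for both genes. Their log2 fold changes were -0.73 ± 0.55 (SE, unadjusted p = 0.206) for *IFI6* and -0.43 ± 0.29 (SE, unadjusted p = 0.155) for *XAF1* by edgeR's quasi-likelihood test. Exact permutation p were 0.221 and 0.165, and for both genes the groups overlapped over most of their range. The upper part of that overlap was cow 5 alone. The second highest high cow was at 78.4 CPM for *IFI6* and 221 CPM for *XAF1*.

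*IFI44* and *IFI44L* are related genes that interferon induces and whose products are less well understood, and they lie side by side on the minus strand of chromosome 3. *IFI44* is at chr3:66282837-66297668 and *IFI44L* at chr3:66307328-66318248, with 8 exons each and 9659 bases between them. *IFI44* was between 16.6 and 43.9 CPM in high cows (median 22.5) and between 21.3 and 81.9 CPM in low cows (median 31.8). *IFI44L* was between 35.5 and 105 CPM in high cows (median 62.7) and between 57.0 and 121 CPM in low cows (median 77.1). Cow 12 was the highest and cow 5 the second highest for both genes, whereas cow 8, among the 3 highest cows for the other 7 members, was at 29.5 CPM for *IFI44*, within the range of the high group. The log2 fold change of *IFI44* was -0.62 ± 0.29 (SE, 95% interval -1.22 to -0.01, unadjusted p = 0.0467, adjusted p = 0.998, edgeR's quasi-likelihood test), and without cow 12 it was -0.26 (unadjusted p = 0.264). That of *IFI44L* was -0.36 ± 0.21 (SE, unadjusted p = 0.114). Exact permutation p were 0.0973 and 0.154. These 2 genes and *XAF1* varied least among the members, with SDs of log2 CPM of 0.61, 0.46 and 0.63.

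*SIGLEC1* encodes sialoadhesin, a receptor for sialic acid on macrophages that blood monocytes gain under interferon, and it lies at chr13:51945279-51962376 (plus strand, 21 exons). It was between 2.77 and 20.6 CPM in high cows (median 3.85) and between 2.40 and 21.9 CPM in low cows (median 10.5). Cows 5, 8 and 12 were above 20 CPM, cow 13 was at 12.1 CPM, and the lowest cow of all was cow 9 of the low group. The log2 fold change was -0.88 ± 0.54 (SE, 95% interval -2.04 to 0.27, unadjusted p = 0.123, edgeR's quasi-likelihood test), with an exact permutation p of 0.198. The 5 monocyte markers found, of 6 listed, summed to between 502 and 1192 CPM in the high group and between 843 and 1249 CPM in the low group. They were at 833 CPM in cow 5, 877 CPM in cow 12 and 1249 CPM in cow 8, so 2 of the 3 cows with the most *SIGLEC1* were within the range of the other cows. With the monocyte markers as a covariate, 1 of the 9 members, *OAS1X*, had an unadjusted p below 0.05, against 2.34% of all genes tested.

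Compared per kilobase of exon, *XAF1* had the highest level, 190 ± 84.2 CPM per kilobase (SD, n = 13), and *IFI6* was next at 157 ± 135. *XAF1* was above *IFI6* in 9 of 13 cows, so their order was not the same in all cows. *OAS1X* (54.6 ± 41.0 CPM per kilobase) and *IFI44L* (36.4 ± 11.7) followed, with *OAS1X* above *IFI44L* in 8 of 13 cows. The length used for *OAS1X*, 2469 bases, covers both of its exon stretches. Its level and place may therefore not be those of a single gene copy. *IFI44* was at 22.7 ± 12.3, *OAS2* at 16.4 ± 17.3, *CMPK2* at 13.5 ± 10.6 and *RSAD2* at 12.6 ± 14.0 CPM per kilobase. *OAS2* was above *CMPK2* in 7 and *CMPK2* above *RSAD2* in 10 of 13 cows, and these differences in mean were smaller than the SD. *SIGLEC1* had the lowest level, with a median of 0.853 CPM per kilobase (range 0.437 to 3.98, n = 13), below *RSAD2* in 13 of 13 cows. By mean CPM, not scaled by length, 7.12% of all genes tested were at or above *XAF1* and 71.6% were at or above *SIGLEC1*.

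The fold changes depended on cow 5 of the high group. It was the highest high cow for every member, so leaving it out had to move each fold change further below 0. Without it, all 9 members had a log2 fold change further from 0, between -0.52 ± 0.19 (SE) for *IFI44L* and -2.54 ± 0.45 (SE) for *OAS2*, where 48.8% of all genes were below 0. All 9 then had an unadjusted p below 0.05, from 4.02e-05 for *CMPK2* and 4.59e-05 for *OAS2* to 0.0154 for *IFI44L* (edgeR's quasi-likelihood test), where 3.31% of all genes tested had one and 1.79% in the lower direction. The adjusted p was 0.252 for *OAS2* and *CMPK2* and 0.893 for the other 7, so none passed, as for 0% of all genes. The exact permutation p over 924 splits was below 0.05 for 7 of 9 members and for 3.05% of all genes, the exceptions being *IFI6* (0.0628) and *SIGLEC1* (0.0584). The other 6 high cows had 11.4 ± 3.03 CPM of *RSAD2* and 10.9 ± 1.37 CPM of *CMPK2* (SD, n = 6), and for these 2 genes each of the 6 lay below every low cow, as for 0.0997% of all genes. Leaving out cow 5 was a choice made with its values known, and nothing in its labels sets it apart. The shares over all genes include genes for which cow 5 was not picked, so they are not a like comparison.

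**Figure D2:**
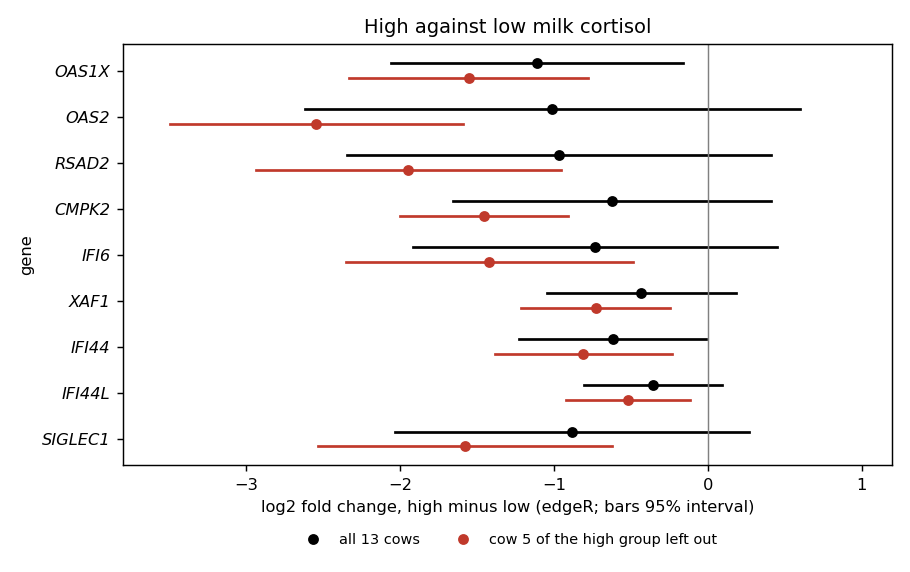
Log2 fold change of each gene, high minus low (edgeR), with its 95% interval, for all 13 cows in black and with cow 5 of the high group left out in red. In black, only the intervals of *OAS1X* and *IFI44* lie below 0, and in red all 9 do.

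Erythroid markers ran higher in the high group, with overlap. The 7 erythroid markers summed to between 382 and 7999 CPM in the high group and between 139 and 577 CPM in the low group, and cow 5 was at 2813 CPM. With the log2 haemoglobin share as a covariate, the 9 log2 fold changes were still below 0, between -0.48 for *XAF1* and -2.34 for *OAS2*, and 1 of 9, *IFI44L*, had an unadjusted p below 0.05 (0.0334, edgeR's quasi-likelihood test), against 1.09% of all genes tested. With this covariate and without cow 5, 5 of 9 had one, against 1.28% of all genes. Here too cow 5 was left out with its values known, so the comparison with all genes is not a like one. The neutrophil markers, 5 of 6 found, summed to between 3973 and 8240 CPM in the high group and between 6209 and 8679 CPM in the low group, and their part in the difference was not tested. T cell markers (6 of 6 found) were between 2170 and 3359 CPM in the high and between 2554 and 3970 CPM in the low group, and B cell markers (5 of 5) between 1242 and 2542 CPM and between 1191 and 2218 CPM. Cow 5 was the highest high cow for both lymphocyte lists.

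The members varied together from cow to cow. When log2 CPM was centred on each gene and averaged over the 9 members, cow 5 was highest at 1.46, followed by cow 12 at 1.42 and cow 8 at 1.33. Cow 10 (0.52) and cow 13 (0.43) came next, and the other 8 cows lay between -0.94 and -0.26. Cows 5, 8, 10 and 12 were above the median of the cows for 9 of 9 members and cow 13 for 8 of 9, while cows 1 and 3 were above it for none. The high group had a median of -0.67 and, apart from cow 5, kept between -0.94 and -0.39 (SD 0.21, n = 6). The low group was spread over nearly the whole range, from -0.58 to 1.42 (median 0.47, SD 0.81, n = 6). Of the cows at the upper end, cow 8 had the most counts of all 13 cows and cow 12 the fewest.

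**Figure D3:**
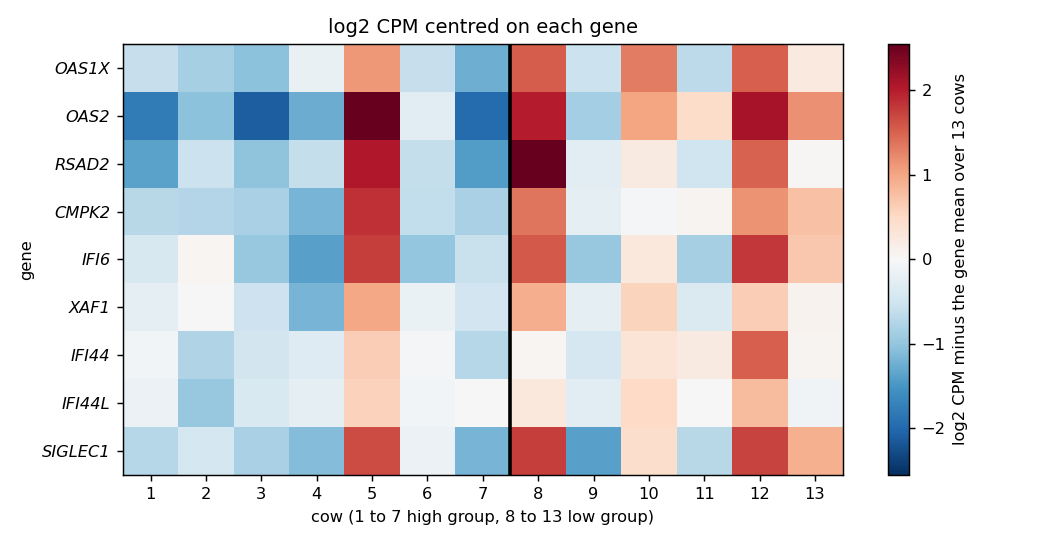
Log2 CPM of each gene in each cow minus the mean of that gene over the 13 cows, with red above and blue below the mean, and a line between the high group (cows 1 to 7) and the low group (cows 8 to 13). Cows 5, 8 and 12 are red for nearly every gene, and *IFI44* in cow 8 is close to its mean.

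Across the 13 cows, all 36 pairs of the 9 members were positively correlated in log2 CPM. Pearson's r was between 0.611 (*IFI44* with *XAF1*) and 0.942 (*IFI6* with *SIGLEC1*), with a median of 0.841. Spearman's rho was between 0.577 and 0.940, with a median of 0.755. Every pair had a permutation p below 0.05 (100000 resamples), at most 0.0247 for r and 0.0422 for rho, also after Benjamini-Hochberg adjustment over the 36 pairs. The pairs share libraries and scaling, and they are not independent of each other. The members were also chosen with earlier results of these data known, so these p-values are a description. Without the 2 cows farthest from the median of the first gene of a pair, r was between 0.325 and 0.898 (median 0.759).

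Within the low group the median r of the 36 pairs was 0.827 (range 0.371 to 0.984, n = 6 cows), and within the high group it was 0.826 (range 0.450 to 0.970, n = 7 cows). In the high group this rested on cow 5. Among the other 6 high cows the median r was 0.179, with a range from -0.565 to 0.938 and 21 of 36 pairs above 0. Without the 3 cows with the highest mean level, cows 5, 8 and 12, the median r over the other 10 cows was 0.615 (range 0.119 to 0.866), and all 36 pairs stayed above 0. Co-variation was present without the 3 highest cows but was weaker, and it was not seen across all members among the 6 high cows with a low level.

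**Figure D4:**
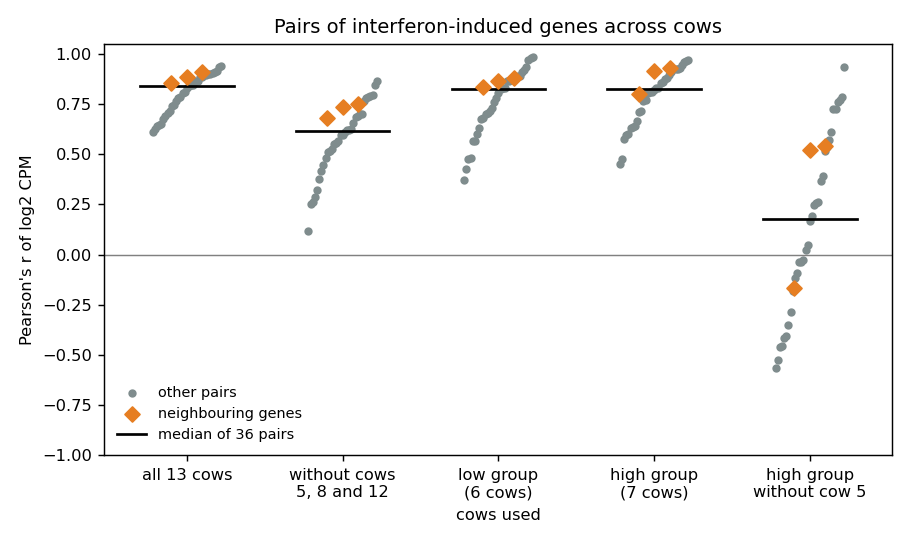
Pearson's r of log2 CPM for each of the 36 pairs of members, over the cows named on the horizontal axis, with black lines at the medians and diamonds for the 3 pairs of neighbouring genes. The median is 0.841 over all 13 cows, 0.615 without cows 5, 8 and 12, and 0.179 in the high group without cow 5.

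*IFI44* and *IFI44L* stood somewhat apart from the other members, a split noticed in the values and given as a description. Their r with each other was 0.853, and with the other 7 members it was between 0.611 and 0.787 (median 0.699). Among the other 7 members r was between 0.806 and 0.942 (median 0.886). Of the 36 pairs, the 3 pairs of neighbours on a chromosome were not the ones with the highest r, although *IFI44* and *IFI44L* were each the closest of all genes to the other. *RSAD2* and *CMPK2* (r = 0.912) were the fourth of the 36 pairs, *OAS1X* and *OAS2* (r = 0.886) came at rank 11, and *IFI44* and *IFI44L* at rank 16.

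Each member was also set against the mean of the other 8, beside all genes outside the list. *SIGLEC1* had the highest r to that mean of 11025 genes ranked (0.953), *OAS2* was at rank 2 (0.947) and *CMPK2* at rank 3 (0.938). *RSAD2* (0.924) and *IFI6* (0.912) were at rank 5, *OAS1X* (0.914) at rank 10 and *XAF1* (0.888) at rank 14 of their own rankings. *IFI44* (0.771) and *IFI44L* (0.756) were at ranks 78 and 88. These ranks are a description, since the members were chosen with earlier results of these data known.

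Outside the list, the 10 genes whose log2 CPM most resembled the mean of the 9 members over the 13 cows were *ISG15* (r = 0.957), *DDX58* (0.942), *ZBP1* (0.931), *MX2* (0.931), *PML* (0.918), *FOXS1* (0.917), *STOML1* (0.915), *PARP10* (0.914), *PARP12* (0.913) and *RNF114* (0.910). *ISG15* encodes a ubiquitin-like protein that is joined to other proteins, *DDX58* the RNA sensor RIG-I, *ZBP1* a sensor of Z-form nucleic acid, and *MX2* a GTPase that blocks viruses. Of the 10, 6 are in the lists of interferon pathway genes used below. *ISG15* ran from 40.6 to 1015 CPM across the cows, a wider range as a ratio than that of any member but *OAS2*. Of 11024 genes outside the list, 12 had an r of at least 0.9 and 48 of at least 0.8, and the median r was 0.02.

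The mean of the members was set beside cell type markers and technical measures in the same 13 cows, as a description. Pearson's r was 0.09 for the monocyte markers, 0.08 for neutrophils, -0.01 for T cells, 0.36 for B cells, -0.43 for NK and cytotoxic cells, -0.50 for eosinophils and -0.01 for platelets. It was 0.22 for depth and -0.31 for the haemoglobin share. Of the eosinophil markers, 2 of 5 were found. Plasmacytoid dendritic cells, which make much type I interferon, could be followed through only 2 of 6 markers. These share a marker with the NK and cytotoxic list, and their r was -0.33. Over the 13 cows each r to these markers and measures was smaller in size than the r of any pair of members. Within subsets some were not. The B cell markers had an r of 0.62 in the high group and 0.54 in the low group. The NK and cytotoxic markers had -0.60 in the high group, and the eosinophil markers -0.55 in the low group. Among others, depth had an r of 0.56 and the platelet markers -0.50 in the high group. The T cell markers had -0.50 in the low group. Without cows 5, 8 and 12, the haemoglobin share had -0.69 and the plasmacytoid dendritic cell markers -0.58. Their part in the values of the members was not tested.

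The steps before and after the members in the interferon pathway were followed through gene lists. Of 18 interferon ligand genes, 5 were found and none passed the filter: *IFNB3* and *IFNE* had 0 counts in all cows, *IFNK* at most 2 counts, and *IFNL3* and *IFNG* at most 8. A count of 0 allows an expected count of up to 3, between 0.107 and 0.272 CPM at these depths. In a cow with 0 counts, ligand RNA below that level cannot be told from none. Lower values were counted in other cows, such as 0.0865 CPM of *IFNL3* in cow 5. The receptors and their kinases (8 of 9 found and tested) had 4 genes below and 4 above a log2 fold change of 0, from -0.18 for *IFNAR2* and -0.17 for *IFNGR2* to 0.29 for *JAK2* and 0.30 for *IFNLR1*, and none reached an unadjusted p of 0.05. The median was 0.01, as over all genes tested, of which 46.7% were below 0 and 2.09% had such a p.

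Among the transcription factors of the response, 7 of 8 were below 0 (median -0.33), beside 46.7% of all genes tested. Their median r to the mean of the members was 0.64, so they are not separate from the member values. An unadjusted p below 0.05 was reached by 1, *STAT2*, beside 2.09% of all genes (-0.47 ± 0.22, SE, unadjusted p = 0.0460, adjusted p = 0.998, edgeR's quasi-likelihood test). *IRF7*, which amplifies interferon production, was at -0.45 ± 0.44 (SE), while *IRF5* (-0.01) and *IRF8* (0.14) were at the upper end. The sensors and their adaptors (13 of 16 found) were split, with 8 below 0, beside 46.7% of all genes tested, and a median of -0.09. The sensors *DDX58* (-0.69 ± 0.44, SE) and *ZBP1* (-0.58 ± 0.51) were lowest, *TBK1* (0.19) and *TLR3* (0.22) were highest, and *IFIH1* (-0.51, unadjusted p = 0.0374) was the 1 gene of the list past an unadjusted 0.05.

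The list of partners of the OAS enzymes, which also holds OAS-like genes such as *OASL*, had 4 of 6 genes found and tested. Values in this list lay nearer to 0 than those of *OAS1X* and *OAS2*, a difference that was not tested. *ABCE1*, a ribosome recycling factor, had a log2 fold change of 0.14 ± 0.17 (SE), *PDE12*, which degrades oligoadenylates, of 0.04 ± 0.17, and *OASL* of -0.21 ± 0.25. None of these 3 had an unadjusted p below 0.05, and their r to the mean of the members was between -0.48 and 0.34.

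The list nearest to the members in role, 46 other interferon-induced effectors, had 34 genes found and 33 tested. Of these, 30 had a log2 fold change below 0, beside 46.7% of all genes tested, and the median was -0.45. As these genes vary with the members over the same cows, they are not separate observations. An unadjusted p below 0.05 was reached by 3, *Mx1*, *TRIM25* and *LGALS3BP*, beside 2.09% of all genes, and none passed adjustment. *Mx1*, a GTPase that traps viral nucleoproteins, was lowest (-1.11 ± 0.43, SE, unadjusted p = 0.0202, adjusted p = 0.998, edgeR's quasi-likelihood test), followed by *MX2* (-0.98 ± 0.57). *ZC3HAV1* (0.16) and *SAMHD1* (0.09) were highest. Without cow 5, 31 of 33 were below 0 (48.8% of all genes), 20 had an unadjusted p below 0.05 (3.31% of all genes) and the median was -0.57, against a median of -1.46 for the 9 members. Cow 5 was left out with its values for the members known, and these genes vary with the members (median r 0.75). Their counts are therefore not a like comparison with the shares over all genes. The negative regulators (7 of 8 found) had 4 genes below 0, beside 46.7% of all genes tested, and a median of -0.03. *PIAS1* (-0.23, unadjusted p = 0.0479, edgeR's quasi-likelihood test) and *NLRC5* (-0.19) were lowest, and *SOCS1* (0.21) and *RNF125* (0.38) were highest.

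**Figure D5:**
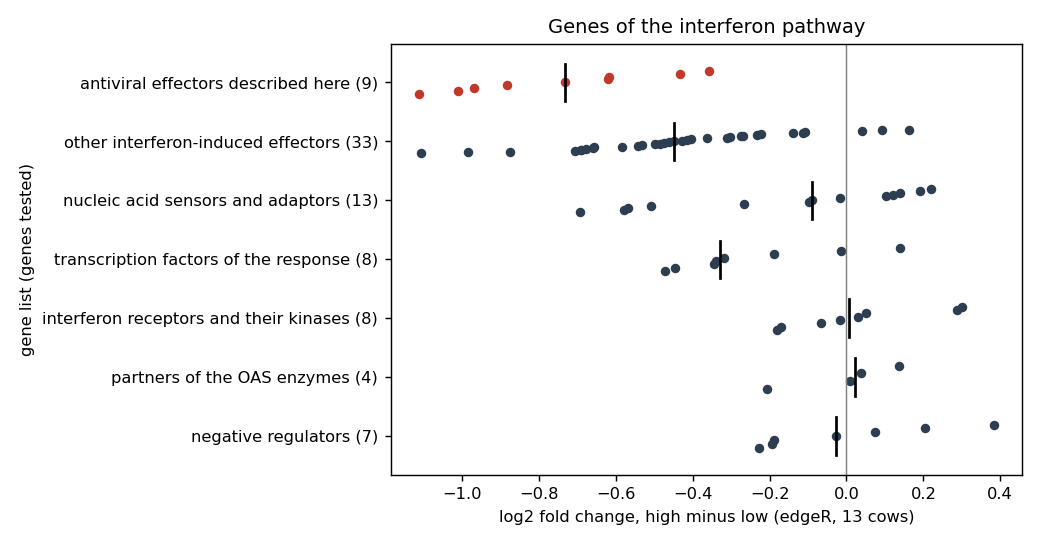
Log2 fold change, high minus low, of each tested gene (points, edgeR, 13 cows) in the interferon-induced genes described here, in red, and in 6 lists of the same pathway, with black lines at the medians and the number of genes tested in parentheses. The 9 members lie between -1.11 and -0.36, and the receptors, OAS partners and negative regulators lie on both sides of 0.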

How the data were processed

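Whole blood RNA of 13 cows was sequenced, and raw counts of reads per gene name were deposited, with no scaling by the authors. Per the file headers they were made with featureCounts 1.4.6-p3 on exons of Ensembl release 88 (UMD3.1), summed by gene name, and options for strand, pairs or multiple mapping were not set. The submitters' processing notes name STAR 2.7.3, Subread 1.6.5 and ARS-UCD1.2 instead, and the headers name a folder for goat, so the build of the alignments is uncertain. Positions are those of the count tables. Unnamed genes share 1 entry, left out here, with 13.9% to 16.7% of counts. Reads of near-identical OAS copies may be divided between names or lost.

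Groups are from the sample titles. Nothing but the labels ties a library to a cow, and p-values measure the spread between these samples. TMM-scaled CPM and log2 CPM (prior count 2) were derived. All genes past filterByExpr (minimum count 10, minimum total 15) were fitted with edgeR 4.0.16 (robust quasi-likelihood, no covariates) in R 4.3.3, with Benjamini-Hochberg adjustment over all genes tested. Single genes were also tested by exact permutation (two-sided), with a smallest p of 5.83e-04 for 7 against 6 cows. Correlations have permutation p from 100000 resamples in Python 3.11.15 with SciPy 1.17.1. Of 45 pairs planned, 36 were computed, since *OAS1Y* had no value. The alternatives were RLE and upper-quartile factors, no filter, a filter of 10 counts in every cow, DESeq2 1.42.0, limma-voom (limma 3.58.1), a fit that is not robust, the haemoglobin share as covariate, haemoglobin genes left out, a prior count of 0.5, and each cow left out in turn. Another 4 were added after the data were seen: monocyte markers as covariate, the haemoglobin covariate without cow 5, and correlations without the 3 highest cows or, within the high group, without cow 5. The tests were tried on simulated counts. The members and lists were chosen with earlier results of these data known. The genes named are all members, the 2 highest and 2 lowest of each list, the 10 genes most like the mean of the members, and neighbouring genes, and list genes with an unadjusted p below 0.05 were named after their values were seen. Some genes of these lists are counted but not reported here by name. Intervals and floors cover counting error only where they rest on counts.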

Additional observations from a re-analysis of the deposited data

Results flagged for a closer look

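The highest and the lowest cow of each group were compared with the rest of the group for each member, on the log2 CPM scale, which made 36 comparisons in 18 sets of cows. In 4 of them the cow was farther from the others than Dixon's 95% limit allows. Chance flags about 1 set in 20, or 0.9 of the 18, and the sets are not independent because the members vary together. All 4 were cow 5 of the high group as the highest of its 7 cows. It had 185 CPM of *OAS2*, 87.9 CPM of *RSAD2*, 70.0 CPM of *CMPK2* and 20.6 CPM of *SIGLEC1*. No cow of the low group was past the limit for any member.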

How the results depend on the processing

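Over 24 alternatives, the 216 log2 fold changes of the 9 members were all below 0, none passed an adjusted p of 0.05, and the smallest adjusted p was 0.252. Over all genes, 0 were called in each edgeR and limma-voom fit, with 231 at an unadjusted p below 0.05 in the fit as reported, and DESeq2 called 1 gene, *CYP4X1*, no member. The number of members at an unadjusted p below 0.05 was 2 in the fit as reported, beside 2.09% of all genes tested. It was 3 by limma-voom (*OAS1X*, *OAS2* and *CMPK2*, without *IFI44*), beside 1.98% of all genes, and 1 with upper-quartile factors (2.08%). It was 1 with the haemoglobin share as covariate (1.09%) and 1 with the monocyte markers as covariate (2.34%). With the haemoglobin covariate and cow 5 left out it was 5 (1.28%). Leaving out 1 cow in turn gave between 0 (without cow 12, beside 2.17% of all genes) and 9 (without cow 5, beside 3.31%). It gave 1 without any of cows 1, 2, 3, 4, 6, 7, 8, 10 or 11. The share of all genes there was between 1.74% (without cow 7) and 3.4% (without cow 2). The number of members with an exact permutation p below 0.05 was 1 as reported (*OAS2*), beside 2.05% of all genes, and between 0 and 7 with 1 cow left out. It was 7 without cow 5 (beside 3.05% of all genes), 3 without cow 9, 1 without cow 11 (*OAS1X*, not *OAS2*) and 0 without any other. For this test, shares over all genes are given here only for all 13 cows and without cow 5. The median r of the 36 pairs, 0.841 as reported, was 0.615 without the 3 highest cows and 0.179 within the high group without cow 5, and between 0.800 and 0.865 with 1 cow left out in turn. The causes of these differences were not tested. No paired analysis was possible because the groups share no replicate numbers. At 13 cows, intervals of the log2 fold change were wide, for *OAS2* from -2.62 to 0.60.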
